A study of Mus musculus with 29 samples.

Results

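Atoh1 core sites are places in the mouse genome where the authors kept an Atoh1 peak in every line in which Atoh1 was precipitated and kept no Pou4f3 peak in any line. They were chosen by the presence of peaks: windows of 300 bp centred on the summits in 9 lists of kept peaks were joined where they shared at least 1 bp, and sites with a peak in all 4 Atoh1 lists and in none of the 4 Pou4f3 lists were kept. Of 78408 joined sites, 44363 held a peak of at least 1 Atoh1 list and 3104 met the rule. Of 4767 sites in all 4 Atoh1 lists, 3104 (65.1%) had no Pou4f3 list, 669 had 1, 492 had 2, 293 had 3 and 209 had 4. Sites of fewer Atoh1 lists were also mostly without Pou4f3. At sites of 3, 2 and 1 Atoh1 lists, 2752, 5973 and 18225 had no Pou4f3 list, and 950, 2082 and 3576 had 1.

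The lists were made by ChIP-seq, in which DNA held by a protein is precipitated with an antibody and sequenced, from 17 ChIP and 12 input libraries (29 in all) of 6 mouse embryonic stem cell lines derived from the parental line A2loxCre. Each line carried a doxycycline-inducible cassette that joined its factors and the fluorescent protein Venus by 2A peptides: Atoh1 in iAtoh1, Pou4f3 in iPou4f3, Gfi1 and Atoh1 in iG+A, Gfi1 and Pou4f3 in iG+P, Pou4f3 and Atoh1 in iP+A, and all 3 factors in iGPA. All lines were differentiated as embryoid bodies and received 2 µg/ml doxycycline for 48 h, up to day 6. A FLAG tag served to precipitate Atoh1 in all 4 lines that carried it, a MYC tag served for Pou4f3 in all 4 lines that carried that factor, and an antibody to the protein served for Gfi1, which was precipitated in iGPA. Every ChIP group had 2 libraries, which were different clones of a line, except the Gfi1 group, which had 1. The replicates were merged before peaks were called, so each list gives 1 value per peak with no spread between replicates, and the depth is unknown. The sites describe binding of factors expressed from a transgene in embryoid bodies, and no expression values were used here to check which cell types these held.

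Atoh1 is a basic helix-loop-helix (bHLH) transcription factor needed to form the hair cells of the inner ear and several classes of neurons, among them the granule cells of the cerebellum. It binds as a dimer with an E protein to the E-box, a short sequence of the form CANNTG whose central letters differ between bHLH factors. Pou4f3, a POU homeodomain factor, and Gfi1, a zinc finger repressor, act with Atoh1 in hair cells.

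The sequences below are 101 bp around the median Atoh1 summit of core sites, read from the NCBIM37 genome, which is the mm9 build of the files, on the plus strand and named by the gene with the nearest annotated start. Capitals mark CAGATG in either direction (its reverse complement is CATCTG) and CAGCTG, the E-boxes that most core sites shared. The first set holds 6 of the 8 sites with the highest smallest fold enrichment over the 4 Atoh1 lists, together with the core site of Clrn1, to show 2 kinds of strong site: short separate E-boxes, and arrays of E-boxes in a repeated sequence.
BX000454.1 (chr4:139146476-139146576): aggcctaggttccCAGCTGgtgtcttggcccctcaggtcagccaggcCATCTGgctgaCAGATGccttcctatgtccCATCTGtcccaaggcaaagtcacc
Bcl7a (chr5:123796503-123796603): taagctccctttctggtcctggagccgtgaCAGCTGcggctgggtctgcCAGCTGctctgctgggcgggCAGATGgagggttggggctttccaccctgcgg
Fam120b (chr17:15577610-15577710): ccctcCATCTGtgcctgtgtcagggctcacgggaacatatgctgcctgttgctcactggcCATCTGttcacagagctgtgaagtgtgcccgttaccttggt
Notum (chr11:120526910-120527010): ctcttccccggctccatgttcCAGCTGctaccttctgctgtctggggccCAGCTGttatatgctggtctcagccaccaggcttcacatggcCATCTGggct
Gm4559 (chr7:149459730-149459830): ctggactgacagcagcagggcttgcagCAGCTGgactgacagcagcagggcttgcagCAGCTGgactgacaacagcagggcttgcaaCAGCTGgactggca
Krtap5-1 (chr7:149482504-149482604): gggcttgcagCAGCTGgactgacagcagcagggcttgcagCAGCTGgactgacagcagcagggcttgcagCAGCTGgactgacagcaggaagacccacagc
Clrn1 (chr3:58675903-58676003): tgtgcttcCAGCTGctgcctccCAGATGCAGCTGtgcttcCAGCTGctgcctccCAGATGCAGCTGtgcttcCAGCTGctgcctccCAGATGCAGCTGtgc
The second set shows core sites of genes described further on, namely Notch pathway genes (Dll3, Hes6, Heyl), the bHLH inhibitor Id1, the cell cycle genes Ccnd3 and Gadd45g, and Sox4.
Dll3 (chr7:29087298-29087398): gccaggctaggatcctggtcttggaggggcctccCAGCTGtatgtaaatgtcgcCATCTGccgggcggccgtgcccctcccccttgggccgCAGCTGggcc
Hes6 (chr1:93309898-93309998): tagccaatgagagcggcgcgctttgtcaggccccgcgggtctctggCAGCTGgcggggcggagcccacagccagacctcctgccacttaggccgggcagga
Heyl (chr4:122905622-122905722): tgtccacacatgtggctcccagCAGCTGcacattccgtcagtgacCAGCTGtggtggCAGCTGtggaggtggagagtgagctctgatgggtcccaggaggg
Id1 (chr2:152549735-152549835): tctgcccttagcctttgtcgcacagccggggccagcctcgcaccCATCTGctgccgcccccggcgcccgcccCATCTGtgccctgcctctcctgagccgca
Ccnd3 (chr17:47658738-47658838): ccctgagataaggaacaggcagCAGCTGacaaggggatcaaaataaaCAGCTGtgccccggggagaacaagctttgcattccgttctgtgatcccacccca
Gadd45g (chr13:51998845-51998945): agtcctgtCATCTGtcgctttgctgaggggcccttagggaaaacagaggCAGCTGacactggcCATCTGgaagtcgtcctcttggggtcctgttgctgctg
Sox4 (chr13:29051624-29051724): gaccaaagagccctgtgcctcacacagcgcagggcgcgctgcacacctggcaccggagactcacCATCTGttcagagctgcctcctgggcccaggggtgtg
The third set holds 3 of the 4 core sites with the highest fold enrichment of Gfi1, to show what lay under the Atoh1 summit where Gfi1 was also precipitated.
Gm5567 (chr6:40021176-40021276): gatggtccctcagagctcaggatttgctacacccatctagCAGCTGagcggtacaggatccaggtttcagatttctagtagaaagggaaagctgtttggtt
Notch1 (chr2:26342423-26342523): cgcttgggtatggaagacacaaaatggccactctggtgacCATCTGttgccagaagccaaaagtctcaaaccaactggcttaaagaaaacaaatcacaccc
Gm13215 (chr4:131711398-131711498): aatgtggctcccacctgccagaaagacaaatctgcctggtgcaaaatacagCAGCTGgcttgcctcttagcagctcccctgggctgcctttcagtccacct

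The strength of an Atoh1 peak is given here as fold enrichment, the authors' ratio of ChIP signal at the summit to local background. In iAtoh1 the core sites ran from 2.40 to 19.4 with a median of 4.03, and in iG+A from 2.21 to 30.7 with a median of 4.56. In iP+A they ran from 2.14 to 30.9 with a median of 3.98, and in iGPA from 2.01 to 43.9 with a median of 6.03. The other kept peaks had medians of 3.05, 3.20, 3.01 and 3.32 in these lists, in the same order, so core sites were higher by median in every list. Not all were: 609, 358, 609 and 269 core sites lay below the median of their list. The strongest single peaks lay elsewhere, at 43.9 to 72.1. The share of a list's kept peaks that lay at core sites was 20.3% for iAtoh1, 15.4% for iG+A, 16.6% for iP+A and 12.1% for iGPA. Peaks had to be present in 4 lists for a site to be chosen, so these differences in fold are a description of the choice and were not tested.

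**Figure D1:**
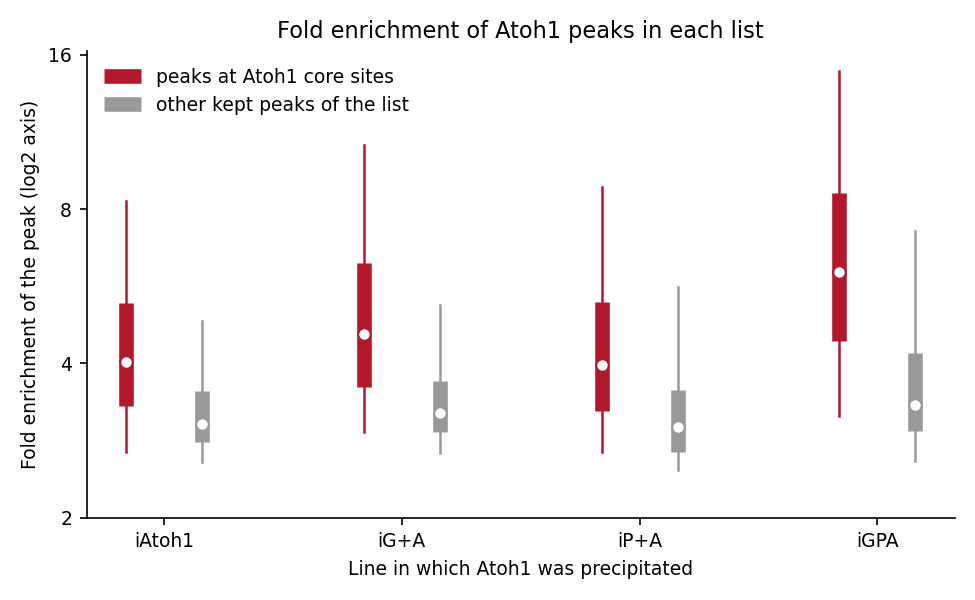
Fold enrichment of Atoh1 peaks (log2 axis) in the 4 Atoh1 lists, at the 3104 core sites (red) and in the other kept peaks of the list (grey). Points are medians, thick bars run from the 25th to the 75th percentile and thin lines from the 5th to the 95th; the core medians of 3.98 to 6.03 lie above the other medians of 3.01 to 3.32 in each list.

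Among the strongest peaks, core sites were most frequent below the very top. Of the 500 strongest peaks by fold, 67%, 67.2%, 44.8% and 51% were at core sites, in the order iAtoh1, iG+A, iP+A, iGPA. Of the 100 strongest, 54%, 47%, 28% and 40% were. Most of the remainder of these 100 lay at sites of all 4 Atoh1 lists that also had Pou4f3, with 44%, 52%, 54% and 50%.

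The same core site could rank differently between lists. Spearman's rho of fold over the 3104 sites was between 0.454 (iG+A with iP+A) and 0.661 (iG+A with iGPA), with no p given, since sites are not replicates and all lists share the way they were called. A site's rank moved by a median of 36.5 percentage points between the list where it ranked highest and the list where it ranked lowest. Of the 610 sites in the top 10% of core sites in any list, 104 were in the top 10% in all 4. The 4 summits of a site spread over a median of 44 bp (interquartile range 28 to 69 bp), and 59.6% of the sites had all summits within 50 bp. Summits had to lie close to each other for their windows to be joined, so this spread is a description of the choice.

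The strongest core site by its smallest fold lay on chromosome 4 at 139146309 to 139146693 (all coordinates are on mm9), in an intron of Iffo2, 1634 bp from the start of the gene model BX000454.1. Its fold was 19.4, 30.7, 20.8 and 43.9 in iAtoh1, iG+A, iP+A and iGPA, the order kept for 4 folds in a row from here on, and it also held a Gfi1 peak of fold 5.15. Its 250 bp held 3 CAGATG and 1 CAGCTG, all of them in the stretch printed above. A site in an intron of Bcl7a, which encodes a subunit of the SWI/SNF chromatin remodelling complexes, had folds of 13.9, 20.4, 16.5 and 39.3. A site 4471 bp from the start of Notum, which encodes a secreted Wnt inhibitor, had folds of 17.3, 13.5, 18.0 and 23.5. Both combined CAGCTG with CAGATG.

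Arrays were found among the 8 strongest sites as well. Gm4559 and Krtap5-1, on chromosome 7, had 5 and 6 CAGCTG in 250 bp in a repeated sequence, with folds of 17.7, 18.8, 18.8 and 21.5 at the Gm4559 site. The folds at the Krtap5-1 site were 14.9, 15.8, 20.3 and 21.4. Repeated sequences like these can share reads, so their folds are less certain than those of single-copy sites.

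E-boxes of 2 kinds filled the core sites. In the 250 bp around the median Atoh1 summit, CAGCTG was found at 2219 core sites (71.5%, exact 95% interval 69.9 to 73.1), against 25.8% of all joined sites and 14.0% of equal windows 1000 bp to each side of the core sites. CAGATG was found at 1735 core sites (55.9%, 54.1 to 57.7), against 27.4% of all joined sites and 18.0% of the flanking windows. One or the other was found at 2913 sites (93.8%), against 29.5% of the flanking windows. Both occurred together at 1041 sites, CAGATG alone at 694 and CAGCTG alone at 1178, and 191 sites had neither. Sites of fewer Atoh1 lists without Pou4f3 shared these E-boxes. At sites of 3 lists CAGCTG was found at 59.9% and CAGATG at 48.5%. One or the other was found at 83.7% of sites of 3 lists, 76.7% of sites of 2 and 62.3% of sites of 1.

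Other E-boxes differed less from their flanking windows, in both directions. CACCTG, the E-box with a central CC, was found at 24.4% of core sites (22.9 to 26.0) and 20.2% of flanking windows (19.3 to 21.3), CATATG at 6.38% and 5.59%, and CACGTG, the form bound by Myc and its relatives, at 4.09% and 3.70%. CACATG was found at 12.98% and 18.9%, and CAAATG at 10.1% and 14.7%. The core sites were richer in G and C than their flanks, with a median of 56.2% against 47.8%, and the part of this in the shares was not tested.

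The E-boxes were concentrated at the summit. Within 20 bp of it, CAGCTG occurred 271 times per 1000 core sites in each 20 bp, against 14.3 at distances over 300 bp. CAGATG occurred 163 times against 17.8. CACCTG and CATATG were also higher at the summit, with 38.5 against 18.4 and 12.9 against 4.09. The median distance of the nearest CAGATG from the summit was 18 bp.

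The letters beside CAGATG were also uneven. Of the CAGATG nearest to the summit at 1735 core sites, 3.00% were preceded by T, against 18.2% of 1120 CAGATG in the flanking windows. The letter after it was G in 58.1% against 29.1%, and A in 5.82% against 22.7%. At 2 letters before it, A stood in 39.0% and G in 37.1%, against 23.3% and 23.4%. These preferences overlap the AtEAM pattern, the Atoh1 E-box associated motif, a 10-letter extended E-box described for Atoh1 in the cerebellum.

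**Figure D2:**
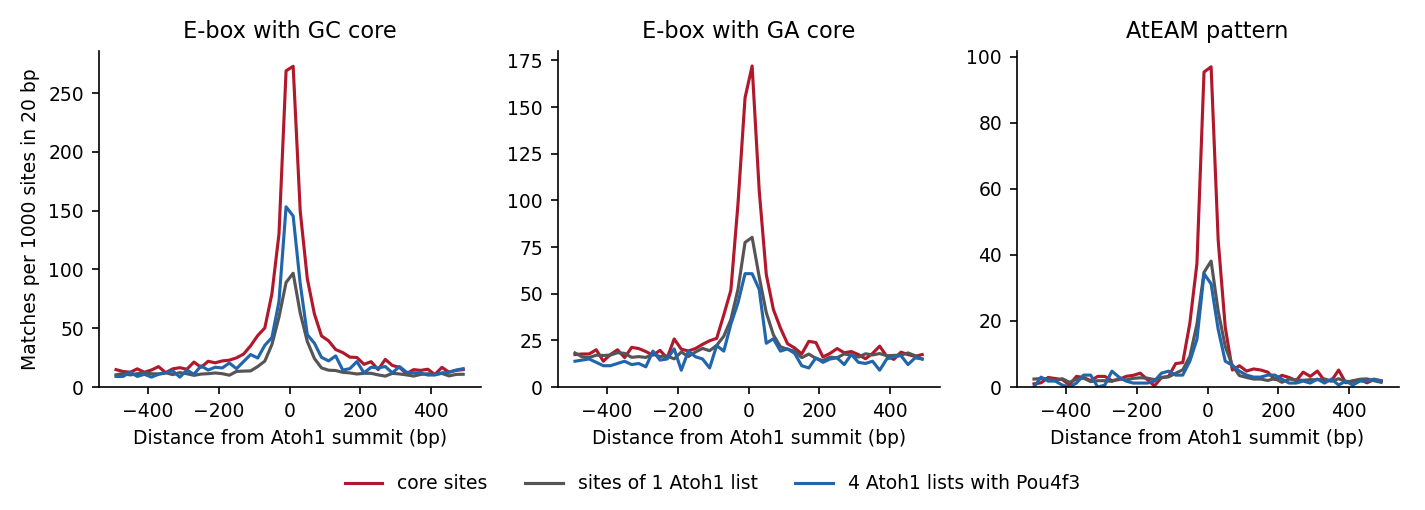
Matches per 1000 sites in bins of 20 bp, by distance in bp from the median Atoh1 summit, for CAGCTG (E-box with GC core), CAGATG (E-box with GA core) and the AtEAM pattern. Core sites (red) average 271, 163 and 96.2 matches per bin within 20 bp of the summit, above sites of 1 Atoh1 list (grey) and sites of all 4 Atoh1 lists with Pou4f3 (blue).

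AtEAM was found at 956 of the 3104 core sites (30.8%, exact 95% interval 29.2 to 32.5), against 9.07% of all joined sites and 2.26% of the flanking windows. It was found at 23.2% of sites in 3 Atoh1 lists, 21.3% in 2 and 15.3% in 1, all without Pou4f3. Core sites exceeded sites of 1 list by 15.5 percentage points (Newcombe 95% interval 13.8 to 17.2), in the same direction on 20 of 20 chromosomes, and sites of 3 lists by 7.62 points (5.34 to 9.87), on 19 of 20. They exceeded the 1663 sites of all 4 Atoh1 lists with Pou4f3, of which 12.9% held the pattern, by 17.9 points (15.5 to 20.1), on 20 of 20 chromosomes. The intervals cover counting error only, since neither replicates nor independent sites stand behind them. One-list sites had lower fold, and sites with Pou4f3 were wider (median 539 bp against 346 bp) and lay more often at starts. Among sites over 1 kb from any start, a comparison added after the data were seen, the differences were 17.2 points from one-list sites and 19.3 from sites with Pou4f3.

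**Figure D3:**
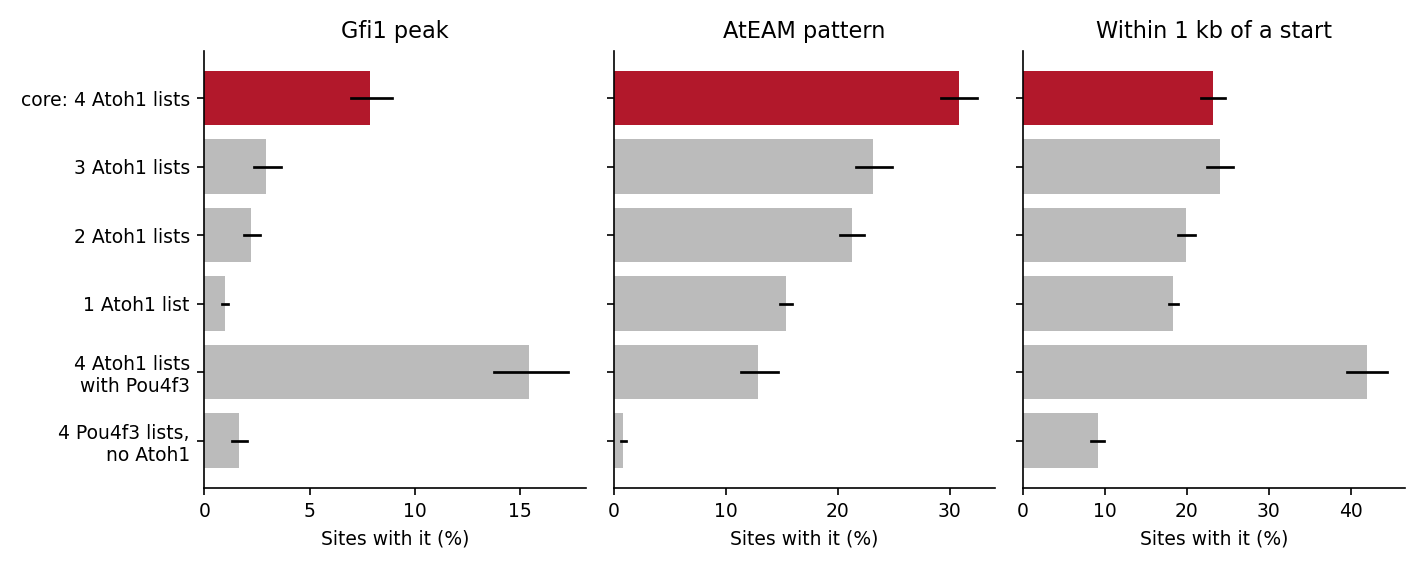
Percent of sites with a Gfi1 peak, with an AtEAM pattern or within 1 kb of an annotated start, for core sites (red) and 5 other classes of joined sites (grey). Sites of 3, 2 or 1 Atoh1 lists have no Pou4f3 peak, and black lines are exact 95% intervals; core sites have the highest AtEAM share, 30.8%, while sites of 4 Atoh1 lists with Pou4f3 have the highest Gfi1 and start shares.

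Letters bound by POU factors were scarce at core sites. The pattern ATAATTAAT with up to 1 mismatch was found at 1.80% of them and 7.18% of their flanking windows, and TAATTA at 3.25% and 6.19%. The first pattern was also below its flanking windows at sites of 1 Atoh1 list, with 5.73% and 8.23%. At sites of 4 Atoh1 lists with Pou4f3 it was found at 6.67% and 9.47%. The rule left out sites with a Pou4f3 peak, so the shares at core sites are not independent of the choice. Core sites also had more G and C than their flanks, and the part of either in these shares was not tested.

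Gfi1 peaks marked a minority of the core sites. Of the 3104 sites, 245 (7.89%, exact 95% interval 6.97 to 8.90) held a Gfi1 peak, against 3.81% of all joined sites. The share was 2.94% at sites of 3 Atoh1 lists, 2.23% at sites of 2 and 0.966% at sites of 1, so core sites exceeded one-list sites by 6.93 percentage points (Newcombe 95% interval 6.02 to 7.94), on 20 of 20 chromosomes. Against one-list sites from iGPA, the line in which Gfi1 was precipitated, the difference was 7.15 points (6.23 to 8.17), a comparison added after the data were seen. Sites of all 4 Atoh1 lists with Pou4f3 had a higher share, 15.5%, and core sites minus these gave −7.56 points (−9.59 to −5.62), with the same direction on 19 of 20 chromosomes. Those sites were also wider, with a median of 539 bp against 346 bp, and the part of width in this difference was not tested. The Pou4f3 counterpart of the core sites, 5208 sites in all 4 Pou4f3 lists and no Atoh1 list, had 1.63%.

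The Gfi1 peaks at core sites were of usual height for their list, with a median fold of 4.44 against 4.40 elsewhere, but the highest was 15.0 against 220 elsewhere. Their summits lay a median of 37 bp from the Atoh1 summit, and 64.1% were within 50 bp. A site in an intron of Notch1 had a Gfi1 fold of 12.2 and Atoh1 folds of 8.06, 16.2, 6.68 and 19.4, higher in iG+A and iGPA, the lines that carried Gfi1. The site of Gm5567 had 7.70, 10.5, 6.24 and 12.2, and that of Gm13215 (Gfi1 fold 11.4) had 4.40, 4.01, 12.0 and 11.2, where the low and the high pair differed instead by the presence of Pou4f3. These 3 sites were named for their Gfi1 fold, and no test was made of them. The highest fold was in iGPA at 66.3% of all core sites and in iG+A at 16.8%.

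Core sites with Gfi1 differed from those without in height and letters. The median Atoh1 fold with and without Gfi1 was 4.89 and 3.91 in iAtoh1, 6.41 and 4.54 in iG+A, 4.95 and 3.87 in iP+A, and 7.88 and 5.91 in iGPA, so the gap was also present in the lines without Gfi1 in their cassette. Ranked by the smallest fold over the 4 lists and cut into 4 groups of 776, the weakest core sites (fold 2.01 to 2.93) had Gfi1 at 4.51%, the next groups at 5.41% and 7.73%, and the strongest (fold 4.20 to 19.4) at 13.9%. Strongest minus weakest was 9.41 points (6.58 to 12.3), on 20 of 20 chromosomes. CAGATG was found at 63.3% of core sites with Gfi1 and 55.3% without, a difference of 8.00 points (1.54 to 14.1), on 17 of 20 chromosomes. For CAGCTG the shares were 70.2% and 71.6%, with a difference of −1.39 points (−7.61 to 4.24) that did not leave out 0. For AtEAM they were 33.5% and 30.6%, a difference of 2.90 points (−2.97 to 9.24) that also did not. The strict Gfi1 pattern AATCACAGC or AATCACTGC was found at 5 of 245 sites with Gfi1 (2.04%) and 11 of 2859 without (0.385%). This difference of 1.66 points (0.451 to 4.31) left out 0, but it rests on these few sites. The direction was the same on 5 of 20 chromosomes.

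**Figure D4:**
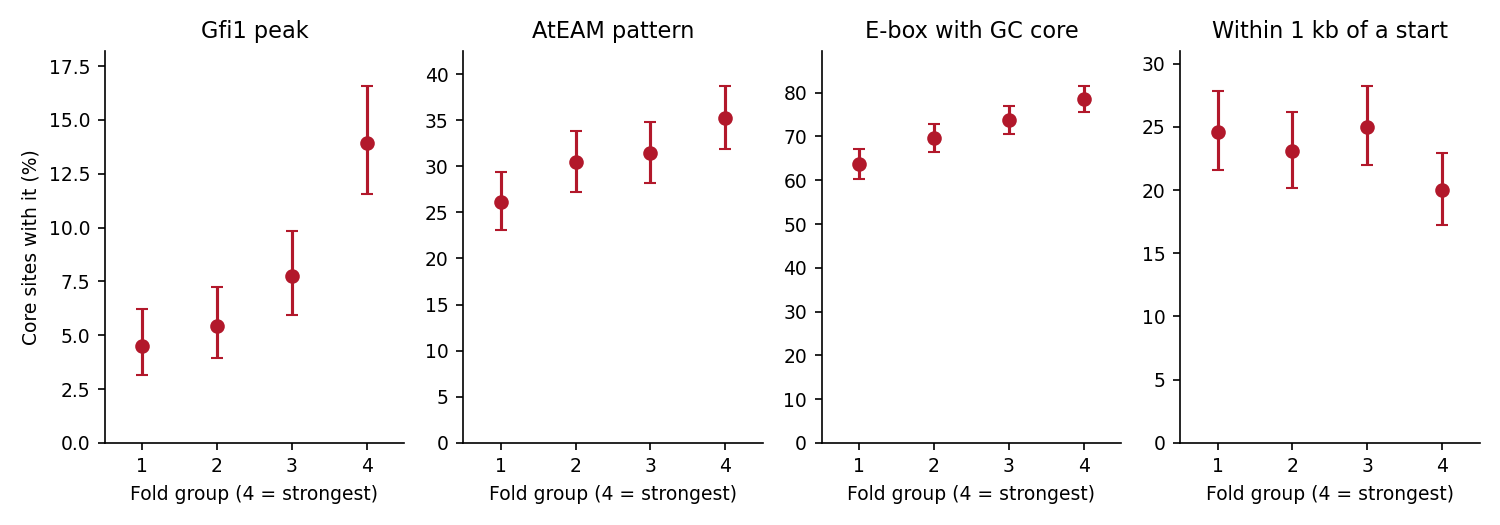
Percent of core sites with a Gfi1 peak, an AtEAM pattern, CAGCTG (E-box with GC core) or a start within 1 kb, in 4 groups of 776 sites by the smallest Atoh1 fold over the 4 lists (group 4 strongest), with exact 95% intervals. The Gfi1 share rises from 4.51% to 13.9% and the CAGCTG share from 63.8% to 78.6% between the weakest and the strongest group.

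E-boxes were also more frequent at the stronger core sites. CAGCTG was found at 63.8% of the weakest group and 78.6% of the strongest, a difference of 14.8 points (10.3 to 19.2), on 18 of 20 chromosomes. AtEAM rose from 26.2% to 35.2%, a difference of 9.02 points (4.44 to 13.6). By number, the 191 core sites with neither CAGATG nor CAGCTG had a median fold of 4.58 in iGPA and 3.42 in iAtoh1, the 1060 with 2 of them had 6.03 and 4.03, and the 148 with 5 or more had 9.60 and 6.17.

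Most core sites lay away from promoters. Of the 3104, 719 (23.2%, exact 95% interval 21.7 to 24.7) were within 1 kb of an annotated start, against 21.2% of all joined sites. A further 37.3% were in introns, 35.5% were intergenic and 4.03% were in exons. The start share exceeded that of one-list sites (18.4%) by 4.80 points (3.25 to 6.42), on 16 of 20 chromosomes, and the Pou4f3 counterpart (9.12%) by 14.0 points (12.4 to 15.7). It was 18.8 points below that of sites of 4 Atoh1 lists with Pou4f3 (42.0%), and its difference from sites of 3 Atoh1 lists (24.1%), −0.892 points (−3.08 to 1.28), did not leave out 0.

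Core sites at starts had a different make-up from the rest. AtEAM was found at 19.9% of the 719 and 34.1% of the other 2385, a difference of −14.2 points (−17.6 to −10.6), and CAGATG at 39.6% and 60.8%, a difference of −21.2 points (−25.2 to −17.0). CAGCTG was found at 71.9% and 71.4%, a difference of 0.543 points (−3.29 to 4.21). GGGCGG, the letters bound by Sp1 family factors, was found at 50.3% and 12.0%. The sites at starts had a median G and C content of 62.8% against 55.2%. Their Atoh1 fold differed little by median, 3.79 against 4.15 in iAtoh1 and 6.00 against 6.15 in iGPA. Gfi1 was found at 5.42% of them and 8.64% of the others, and the start share was lower at core sites with Gfi1 (15.9%) than without (23.8%), by −7.87 points (−12.2 to −2.54), in the same direction on 13 of 20 chromosomes. With windows of 1000 bp that last difference was −4.54 points (−9.02 to 0.924), which did not leave out 0.

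The 3104 sites were nearest to the starts of 2521 gene symbols, of which 2035 were protein-coding, 9.16% of the 22225 protein-coding genes annotated. Of these, 1728 had 1 core site, 245 had 2 and 62 had 3 or more. Gse1, whose product is part of a histone demethylase corepressor complex, and its neighbour Fam92b had 10 each. Together these formed a cluster of 20 core sites over 358 kb of chromosome 8, between 122715073 and 123073453, each with a CAGATG or CAGCTG, whose smallest fold ran from 2.37 to 8.80. Gadd45g and Auts2 followed with 6, then the corepressor gene Cbfa2t3, the Atoh1 relative Atoh8 and the Hedgehog pathway factor Gli2 with 5, and Sept9 and Socs3 with 4.

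Notch signalling passes between neighbouring cells and restrains proneural bHLH factors in all but a few of them. Of 28 Notch pathway genes, 12 (42.9%) had a core site, against 9.16% of protein-coding genes, and 26 (92.9%) had a site of any Atoh1 list, against 54.1%. Among the ligands, Dll3 had a site 91 bp from its start with folds of 8.06, 8.81, 11.4 and 23.0. Its 250 bp held 2 CAGCTG and 1 CAGATG. Jag1 had an intronic site with folds of 4.76, 3.60, 7.31 and 9.97. Dll1 had no core site: a site in 4 Atoh1 lists lay there, but with Pou4f3.

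Among the receptors, Notch1 had 2 intronic sites and Notch2 had 1. The second Notch1 site had folds of 5.13, 12.4, 3.98 and 10.6, again higher in both lines with Gfi1, although it had no Gfi1 peak. The share of core sites higher in both lines with Gfi1, or in both with Pou4f3, was not counted. Over all core sites, the folds of iG+A and iGPA had the highest rho of the pairs of lists, 0.661. Of all core sites, 66.3% had their highest fold in iGPA and 16.8% in iG+A. The Notch2 site was lower and more even, at 3.54, 4.14, 3.76 and 4.80. Of the modifiers, the fringe glycosyltransferase genes Lfng and Mfng had 1 and 2 sites, the coactivator genes Maml1 and Maml3 had 1 and 2, and the feedback inhibitor gene Nrarp had 1.

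Of the bHLH repressors, Hes6, which antagonises other Hes factors, had a site 149 bp from its start with folds of 5.13, 6.41, 6.67 and 10.3. Heyl had 3 sites, the strongest 5127 bp from the start with 11.6, 10.3, 8.28 and 9.97, one of 5 among the 76 core sites of listed genes (6.58%) at which iAtoh1 was highest, against 7.12% of all core sites. Hes3 had a weak site at 2.81, 4.01, 2.58 and 3.08. Hes1 and Hes5 had none, with up to 4 and 3 Atoh1 lists at a site, where the Hes1 sites of 4 lists also had Pou4f3.

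Of 7 genes of the E proteins, the dimer partners of proneural factors, and of the Id proteins that sequester them, 3 (42.9%) had a core site, against 9.16% of protein-coding genes. All 7 (100%) had a site of any Atoh1 list, against 54.1%. Id1, Id3 and Id4 had 2, 2 and 1 core sites. Id2 had 17 sites of any Atoh1 list and no core site, since its site in 4 lists also had Pou4f3. The E protein genes Tcf3, Tcf4 and Tcf12 had none, and Tcf4 and Tcf12 each had a site in 4 Atoh1 lists with Pou4f3. The stronger Id1 site, on chromosome 2 at 152549631 to 152549974, was among the highest of all listed genes, with folds of 13.8, 21.5, 11.6 and 23.9 and a Gfi1 peak of 3.95. Its 250 bp held 5 CAGATG and no CAGCTG. The second Id1 site, 976 bp from the start, had 3.42, 5.74, 5.38 and 8.49.

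The 17 cell cycle genes included inhibitors, growth arrest genes and the D-type cyclins. Of these, 5 (29.4%) had a core site, against 9.16% of protein-coding genes. A site of any Atoh1 list was found at 15 of the 17 (88.2%), against 54.1%. Gadd45g, a growth arrest gene induced during neurogenesis, had 6 within 69.7 kb, the strongest 56782 bp from its start at 9.16, 10.7, 7.42 and 15.3, and another 90 bp from its start at 5.86, 6.76, 5.27 and 10.3. Ccnd3, which encodes cyclin D3, had 3, the strongest with 8.76, 14.2, 9.14 and 12.2 and a Gfi1 peak. Cdkn1c, which encodes the inhibitor p57, had 2, with 5.99, 7.08, 7.42 and 13.5 at the stronger. Btg2, an antiproliferative gene, had 3, and Gadd45a had 1. Cdkn1a and Cdkn1b, which encode the inhibitors p21 and p27, had none.

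**Figure D5:**
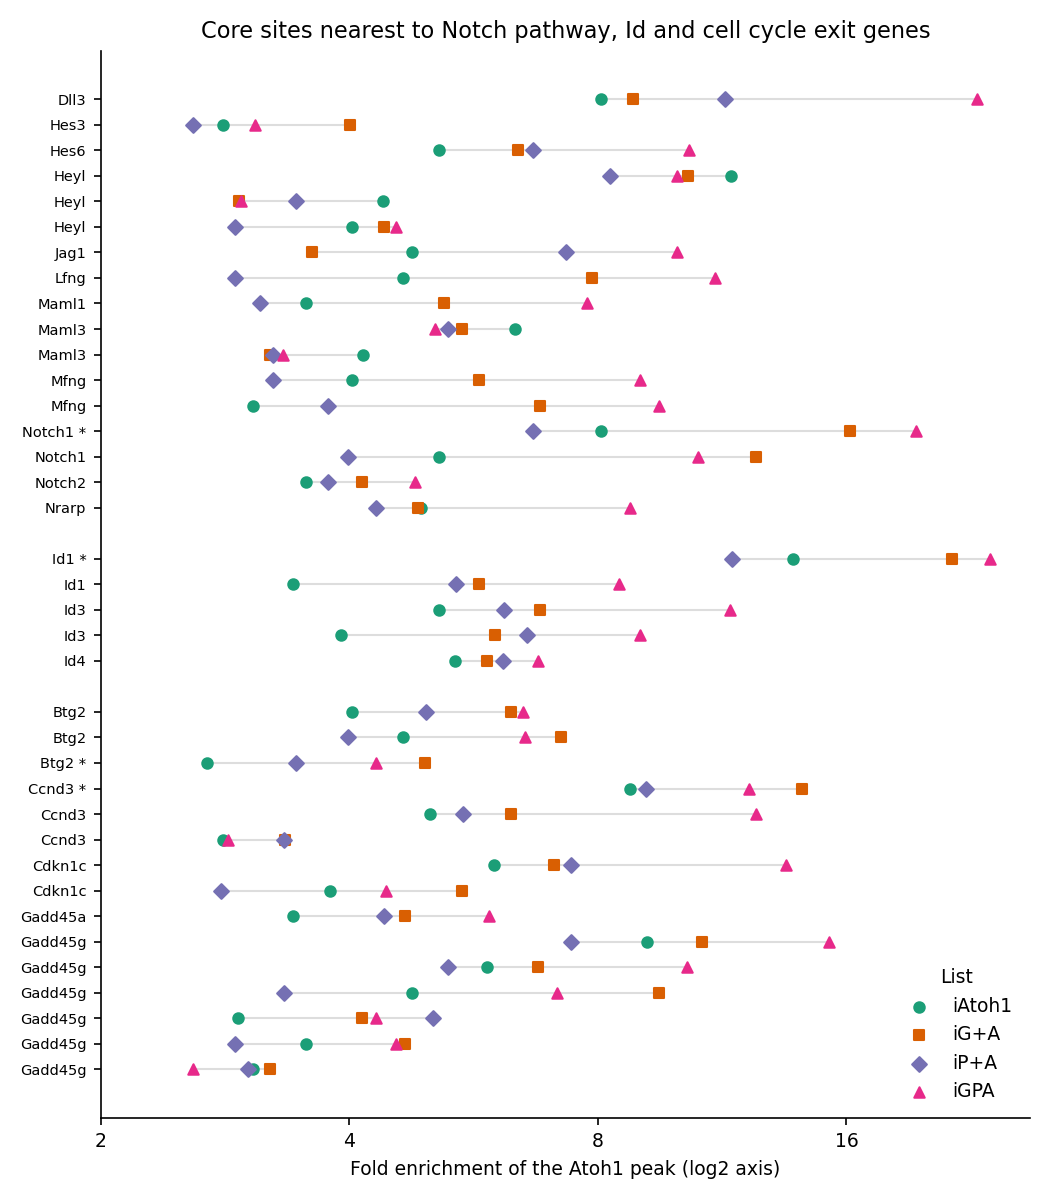
Fold enrichment of the Atoh1 peak (log2 axis) at each core site nearest to a Notch pathway gene (top block), an Id gene (middle) or 1 of the listed cell cycle genes (bottom), with 1 symbol per list and an asterisk where a Gfi1 peak was present. The highest folds are at Id1 (11.6 to 23.9), Dll3 (8.06 to 23.0) and Notch1 (6.68 to 19.4), and of all 76 core sites of listed genes 53 (69.7%) have their highest fold in iGPA, against 66.3% of all 3104 core sites.

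Genes named as Atoh1 targets in other tissues had core sites at 6 of 16 (37.5%, against 9.16% of protein-coding genes). These were Gli2, Nhlh1, Dll3, Hes6, Barhl1 and Barhl2. A site of any Atoh1 list was found at 15 of the 16 (93.8%), against 54.1%. Barhl1, a homeobox gene of hair cells and granule cells, had a site in an exon with folds of 4.64, 4.67, 4.45 and 11.0, and Barhl2 had one at 2.69, 3.07, 5.81 and 8.86, higher in both lines with Pou4f3. Of 19 proneural and neuronal bHLH genes, 3 (15.8%, against 9.16% of protein-coding genes) had a core site, namely Atoh8, Nhlh1 and Nhlh2. A site of any Atoh1 list was found at 9 of the 19 (47.4%), against 54.1%. Atoh1 itself had 7 sites of any Atoh1 list and no core site, since its site in 4 lists also had Pou4f3. Nhlh1, a neuronal bHLH gene, had 2 core sites, the stronger at 3.30, 4.41, 3.66 and 9.72.

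Marker genes of differentiated hair cells and neurons had core sites at 6.25% (2 of 32) and 16.7% (4 of 24), against 9.16% of protein-coding genes. Their shares with a site of any Atoh1 list were 71.9% and 62.5%, against 54.1%. Among the hair cell genes was Clrn1, which encodes clarin and whose site was an array of CAGCTG and CAGATG with folds of 9.04, 8.68, 8.18 and 9.35. The neuronal marker genes were Rbfox3, which encodes NeuN, with 3 core sites, and Cntn2, Tubb3 and Chgb with 1 each. The Tubb3 site had folds of 6.47, 3.60, 8.71 and 11.3, with a Gfi1 peak of 5.50. Of the 7 SoxB and SoxC genes matched, Sox4 and Sox11 had 1 site each. Of 29 axon guidance genes, 9 (31.0%) had a core site, among them Ephb2 and Slit1 with 2 each, and 26 (89.7%) had a site of any Atoh1 list. None of 13 pluripotency regulators, 1 of 13 blood and endothelial regulators (Runx1) and 2 of 22 ribosomal protein genes (Rpl19 and Rps14) had a core site. For these lists the shares with a site of any Atoh1 list were 61.5%, 69.2% and 59.1%. The list counts were not tested, and the spacing of genes was not taken into account.

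Across chromosomes the density of core sites was uneven. Chromosome 11 had 2.38 core sites per Mb, the highest, and the other autosomes had between 0.752 and 1.73. Chromosome X had 13 core sites, 0.0780 per Mb, and chromosome Y had 0. On chromosome 14, 2.13% of 4451 sites of any Atoh1 list were core sites, against 4.68% to 10.5% on the other autosomes, and on chromosome X 1.69% of 769 were. The median distance to the nearest other core site was 99.0 kb, 1106 core sites (35.6%) lay within 50 kb of another, and 270 (8.70%) lay within 5 kb of one.

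The edge of the rule was not sharp. The smallest fold of core sites had a median of 3.33, and that of the 2752 sites in 3 Atoh1 lists without Pou4f3 a median of 2.93 with a highest value of 7.09. The missing list was iP+A at 1046 of these, iAtoh1 at 892, iG+A at 512 and iGPA at 302. Between 7.81% and 11.9% of them had a peak in the missing list that had been called but not kept by the authors.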

How the data were processed

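Peak lists of 9 combinations of line and antibody were analysed, and sample titles gave the groups. The name of the 3-factor list tied it to iGPA. According to the methods of the study, reads were trimmed (Trimmomatic), aligned to mm9 (Bowtie 2) and cleared of duplicates (Picard), of mapping qualities under 40 and of blacklisted regions by the authors, who then ran MACS 2 on merged replicates with merged inputs as control. Versions were not given in the sources used here. The fold enrichment is a ratio computed by the authors for each peak and deposited with it. The −log10 p values were also deposited by the authors as the peak caller gave them, and served in 1 alternative. The deposited summit lists name the peaks the authors kept, by a filter that was not stated, and 14.1% to 35.5% of called peaks were absent from them. The signal column of the summit lists has no stated definition and was not used.

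Read depth is unknown, so weak sites may have been missed to a different extent in each list. A site's fold in a list is that of its highest peak there, and its reference point is the median of its Atoh1 summits. Patterns were searched on both strands in 250 bp around that point and around points 1000 bp to each side, in NCBIM37, within whose chromosome lengths all peaks lay. Starts were those of all GENCODE vM1 transcripts. Short tandem repeats have a unit of up to 12 bp. Scripts (Python 3.11.15, numpy 2.4.6, pandas 2.3.3, scipy 1.17.1, pysam 0.24.0) were tested on simulated data.

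Shares have exact Clopper-Pearson 95% intervals and differences of shares Newcombe hybrid-score 95% intervals. Both cover counting error only, and a difference is called where its interval leaves out 0. No p-value was computed, since sites are not replicates. Named sites were the 8 core sites with the highest smallest fold over the 4 Atoh1 lists, the 4 with the highest Gfi1 fold, the 10 protein-coding genes with most core sites, and listed genes with a core site, of which a few are not reported here. The site rule and the gene lists were chosen with earlier results of these data known. Alternatives were other window lengths, full peak intervals, all called peaks, stricter peaks, fewer chromosomes, other patterns and other definitions of a start. Sequences of core sites that overlap a UTR were not printed.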

Additional observations from a re-analysis of the deposited data

Results flagged for a closer look

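Of the 3104 core sites, 187 (6.02%, exact 95% interval 5.21 to 6.92) held a Pou4f3 peak that the authors had called but not kept, a signal outside the lists on which the sites were chosen. Of the single lists, iP+A gave such a peak at 78 sites, iG+P at 70, iPou4f3 at 69 and iGPA at 27. Over the genome, 3081 (iGPA) to 8123 (iG+P) Pou4f3 peaks per list were called but not kept. The share of other joined sites with such a peak was not computed, so the 6.02% cannot be read as particular to core sites.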

How the results depend on the processing

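Of 139 recomputed values, 126 stayed within the interval, the call or 1.5 times the count of the reported value. The number of core sites was 3191 with windows of 100 bp, 2799 with 1000 bp, 3108 with full peak intervals and 3091 with all called peaks, but 1490 with a −log10 p of at least 10 and 4767 where Pou4f3 was not asked. Without 1 of the Atoh1 lists it was 3406 to 4150. The Gfi1 share was 5.97% with the stricter peaks. The share within 1 kb of a start was 26.0% with windows of 100 bp, 20.6% with 1000 bp and 27.2% with the stricter peaks, 20.9% for protein-coding starts, and 40.9% within 5 kb. The AtEAM share was 26.8% in 100 bp, 33.0% in 500 bp and 34.1% over 1 kb from any start, the last added after the data were seen, and 93.8% where CAGATG or CAGCTG took its place. One difference lost its call: the start share of core sites with minus without Gfi1 was −4.54 points with windows of 1000 bp. The cause was not tested. Over all alternatives, core minus one-list sites ran from 5.14 to 7.92 points for Gfi1 and from 2.47 to 7.08 for starts. For AtEAM the difference ran from 10.2 to 18.1, and it was 31.6 where CAGATG or CAGCTG took the pattern's place. Core sites minus sites of 4 Atoh1 lists with Pou4f3 ran from −12.3 to −7.16 for Gfi1 and from 15.3 to 24.9 for AtEAM. With CAGATG or CAGCTG in place of AtEAM the latter was 30.4, and all of these differences were called. With each chromosome left out in turn the start share of core sites with minus without Gfi1 ran from −9.57 to −5.97 points and core sites minus sites of 4 Atoh1 lists with Pou4f3 from −8.07 to −7.16 for Gfi1 and from 17.2 to 18.7 for AtEAM, and no call of these differences changed. No paired analysis was possible because the replicates were merged before peaks were called, and for the same reason no replicate could be left out. Depth limits how many weak sites each list holds.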

Other observations

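The Atoh1 lists put different shares of their kept peaks on a few chromosomes. Chromosome 14, which makes up 4.72% of the genome's length, held 13.4% of the kept Atoh1 peaks in iAtoh1, 10.9% in iG+A, 10.1% for iP+A and 7.18% for iGPA, while it held 95 of the 3104 core sites. Chromosome 4, with 5.86% of the length, held 8.64% to 10.5% of the kept Atoh1 peaks and 243 core sites. Chromosome X, with 6.28% of the length, held 1.09% to 2.29% of the kept peaks and 13 core sites. 

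Letters of other factors differed from the flanking windows in both directions, at core sites and at all joined sites alike. CCGGAA, the letters bound by Ets factors, was found at 6.57% of core sites and 3.67% of their flanking windows, and at 5.53% and 2.99% for all joined sites. GGGCGG was found at 20.9% and 6.72%, and at 14.5% and 5.64% for all joined sites. CCAAT, the letters bound by NF-Y, was found at 20.9% and 27.0%, and at 27.0% and 31.1% for all joined sites. ACAAAG and ACAATG, forms bound by Sox factors, were found at 14.5% and 7.35% of core sites, against 18.4% and 12.0% of their flanking windows. For all joined sites they were found at 17.3% and 12.3%, against 20.6% and 13.3%. The core sites had more G and C than the flanks, and the part of this in these shares was not tested.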
